A study of Mus musculus with 48 samples.

Results

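The molecular clock of mouse liver and iris was followed through 10 genes: Arntl, Nr1d1, Nr1d2, Per2, Per3, Dbp, Tef, Hlf, Nfil3 and Usp2, out of 46517 genes in the count files. They were picked by name with their TPM (transcripts scaled to a fixed total, a level corrected for gene length and library depth) in view, since several lie below iris in the explants. Their levels and differences are therefore a description, and no p-value is given for them. Counts of calls among them are likewise a description, and nothing is read from them. Tests were read only for 32 other genes, 16 of the core clock and 16 known targets of the clock or of the PAR bZIP factors. Those lists too were chosen with earlier results of these data known, which limits what their tests can show.

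RNA was sequenced from 5 groups of wild-type albino mice, C57BL/6N by the labels and of an albino B6/J strain by the study's methods. Whole livers (n = 3) came from the donors of cells, and freshly isolated hepatocyte preparations (n = 3) were enriched on a density gradient after collagenase perfusion. Spheroids (n = 2) were balls of such cells kept in non-adherent plates, in a medium with dexamethasone and insulin. Explants (n = 5) were spheroids that had engrafted on the iris of a recipient, in the anterior chamber of the eye, and were dissected with surrounding iris 2 months after transplantation. Irises without a graft (n = 3) were their control. In these bulk samples, fewer cells of a type and less RNA per cell cannot be told apart.

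Mice were adults on a cycle of equal light and dark with free access to chow. The hour at which each tissue was taken, and the time spheroids had spent in culture for these libraries, were not given in the sources used here. Hour of collection and group cannot be told apart.

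The cell clock is a feedback loop. ARNTL (also called BMAL1) pairs with CLOCK or NPAS2, binds E-boxes and switches on the Per and Cry genes, whose proteins shut the pair down. The same pair drives Nr1d1 and Nr1d2, which encode REV-ERB repressors that silence Arntl and Nfil3 through a site called RORE, and drives Dbp, Tef and Hlf. These 3 PAR bZIP factors activate D-box genes, many of them for hepatic metabolism, and NFIL3 represses the same sites. Usp2 encodes a deubiquitinating enzyme and is a rhythmic output in many tissues. Arntl and Nfil3 therefore peak at another time of day than the E-box and D-box genes. Glucocorticoids such as dexamethasone are known to reset the clock of cultured cells.

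The sites named above could be read in promoter windows of RefSeq genes on GRCm38.p6, each spanning 250 bases before to 50 after an annotated start. Windows were matched for 9 of the 10 genes, 11 in all, with none for Per2. Both strands were searched for the E-box CACGTG, for the D-boxes TTATGTAA and TTACGTAA, and for RORE. No motif overlapped another. Of 32841 windows of this length, 7.15% held the E-box, 1.06% a D-box and 0.384% RORE. Among the 10 genes the E-box was found in Tef, in the windows of both starts, the D-box in Per3 and RORE in Arntl. These stretches are shown because their genes lie at opposite ends of the pattern below, with Ciart added as the listed repressor that differed most between explants and iris. Capitals mark the motif, and each line runs 5′ to 3′ on the gene's strand. A match is a description of letters, and no match says only that they are not in this window.
Per3: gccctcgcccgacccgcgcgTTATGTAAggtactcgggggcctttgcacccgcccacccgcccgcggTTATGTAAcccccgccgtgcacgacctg
Tef, first start: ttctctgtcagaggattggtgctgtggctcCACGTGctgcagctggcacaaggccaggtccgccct
Tef, second start: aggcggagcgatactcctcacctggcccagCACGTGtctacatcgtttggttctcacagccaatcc
Arntl: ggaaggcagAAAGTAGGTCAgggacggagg
Ciart: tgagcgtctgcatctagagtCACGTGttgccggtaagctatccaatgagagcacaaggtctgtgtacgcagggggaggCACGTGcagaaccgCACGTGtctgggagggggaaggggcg

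The Per3 stretch lies at chr4:151044796-151044890 on the minus strand, with its 2 D-boxes starting 205 and 158 bases before the start. The Tef stretches lie at chr15:81802516-81802581 and chr15:81811246-81811311 on the plus strand, with the E-box starting 127 and 138 bases before the start. The Arntl site, at chr7:113207528-113207557 on the plus strand, lies just inside the transcribed part, 27 bases past the start. Ciart, on the minus strand at chr3:95882247-95882364, held 3 E-boxes within 118 bases. Single E-boxes were also found in the windows of Per1, Cry1 and Bhlhe41, and a D-box in that of Timeless.

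The deposited libraries were 3 per sample, and 2718518 to 6789648 counts per sample were assigned to genes. Hepatocyte marker RNA summed to 13695 to 15186 TPM in livers, 14308 to 17292 in hepatocyte preparations and 13830 to 15241 in spheroids, against 5690 to 7936 in explants and 1676 to 2033 in irises. Iris markers gave 6430 to 6671 TPM in irises and 4654 to 5838 in explants. The iris share that the authors' subtraction used, solved from the deposited tables, was 59 to 82% of the explants' RNA (72.4% ± 9.56, SD, n = 5). Ddx3y, a Y-linked gene, lay at 35.1 to 85.8 TPM in all 16 samples and Xist at no more than 0.335. Each of the 10 genes had at least 7 counts in every sample.

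Arntl (chr7:113207465-113314122 on mm10, plus strand), the activator, was the one of the 10 whose explants all lay above every iris and every liver. Its level was 28.7, 43.3, 40.8, 45.3 and 21.6 TPM in explants 1, 2, 4, 5 and 6 (35.9 ± 10.3, SD, n = 5). Irises gave 5.99, 6.85 and 16.1 TPM (9.64 ± 5.59, n = 3), and livers 1.68, 3.64 and 7.49 TPM (4.27 ± 2.96, n = 3). Such a position above both tissues was held by 2.49% of the 16764 genes tested. Hepatocyte preparations 1, 2 and 3 gave 4.10, 10.9 and 37.5 TPM, which spans nearly the whole scale from liver to explant. Spheroids lay at 35.3 and 25.2 TPM, inside the range of the explants. Explant and spheroid levels overlapped, as did those of hepatocytes and each other group.

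Nfil3 (chr13:52967209-52981073, minus strand), the D-box repressor, was also higher on average in explants than in irises, with overlap. Explants gave 32.2, 43.7, 45.5, 33.2 and 17.5 TPM (34.4 ± 11.2) and irises 16.3, 7.92 and 18.6 TPM (14.3 ± 5.6). Explant 6 alone lay within the irises' range. Livers spread from 11.3 to 41.3 TPM (26.6 ± 15), hepatocyte preparations from 19.7 to 59.5 TPM (37.2 ± 20.3), and spheroids gave 29.6 and 17.5 TPM. No neighbouring pair of groups in the order of Nfil3 means was apart.

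**Figure D1:**
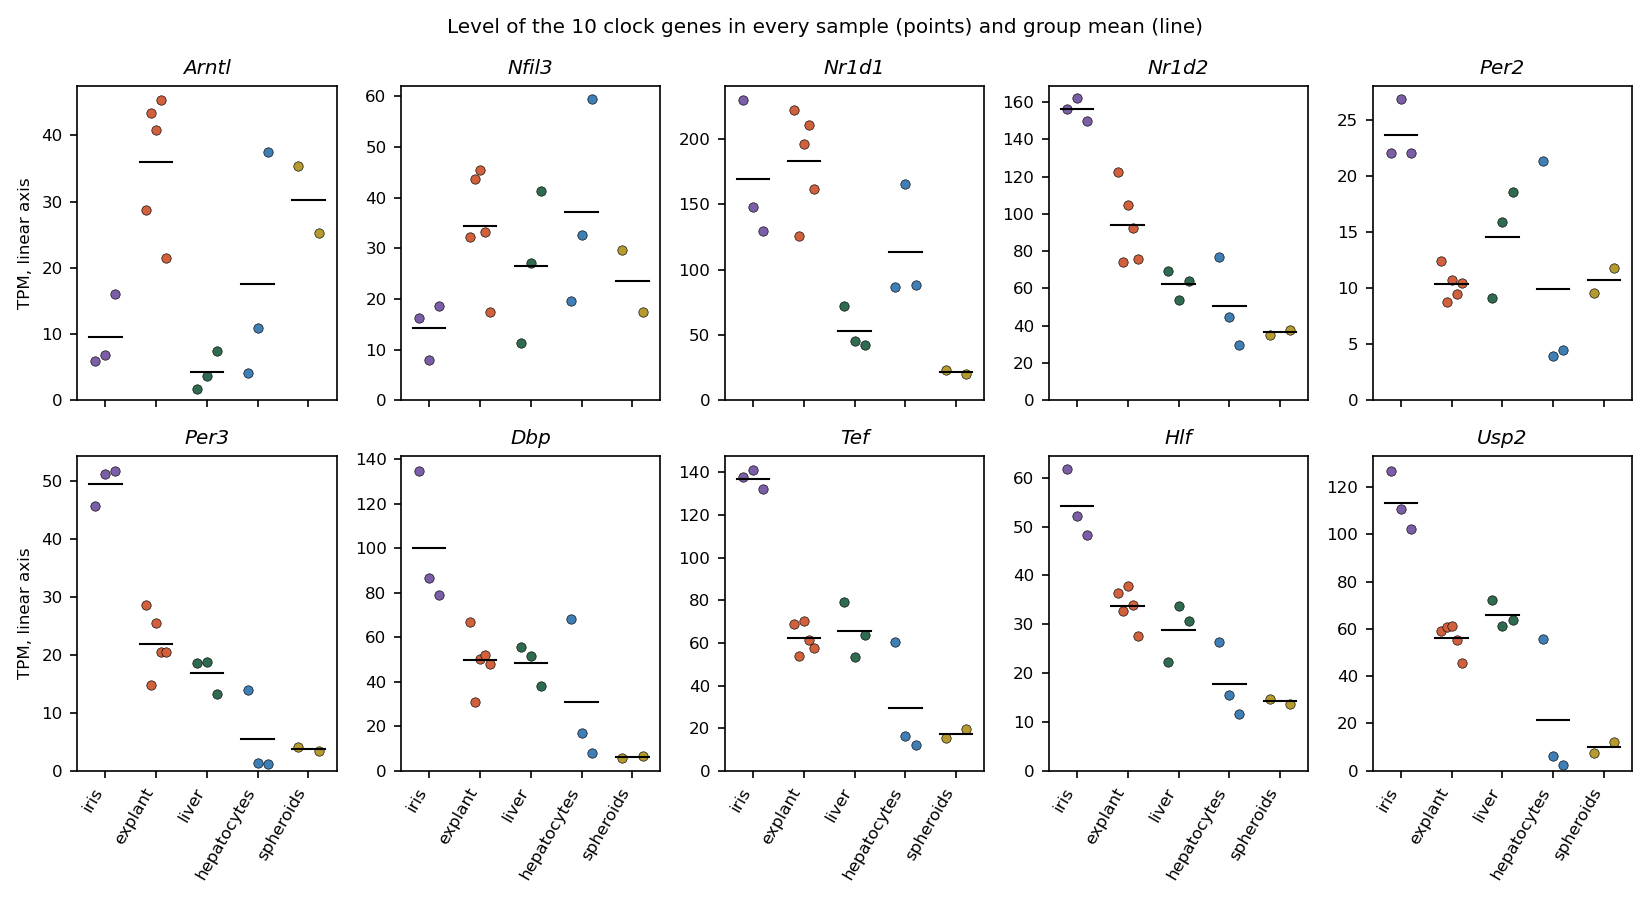
TPM of each gene (linear axis from 0) in every sample, as points by group, with the group mean as a line. Iris has the highest mean for 7 genes, explants have the highest for Arntl and Nr1d1, and the hepatocyte preparations of Dbp, Usp2 and Per3 split into 1 high and 2 low points.

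The REV-ERB genes, Nr1d1 (chr11:98767932-98775333, minus strand) and Nr1d2 (chr14:18204054-18239127, minus strand), went apart from each other. Nr1d1 was 222, 126, 196, 211 and 162 TPM in explants (183 ± 39.3) and 230, 148 and 130 TPM in irises (169 ± 53.3), so the ranges overlapped throughout. Livers held 72.0, 45.1 and 42.4 TPM (53.2 ± 16.4), hepatocyte preparations 86.5, 165 and 88.0 TPM (113 ± 45.1), and spheroids 23.2 and 20.1 TPM. Thus livers lay below every hepatocyte preparation and above both spheroids. For Nr1d2, irises at 156, 162 and 150 TPM (156 ± 5.97) lay above all explants, at 122, 74.3, 105, 92.7 and 75.9 TPM (94.0 ± 20.3). Livers gave 53.8 to 69.2 TPM, hepatocytes 29.8 to 76.9 and spheroids 35.3 and 37.7. Within a sample, Nr1d1 over Nr1d2 was 1.69 to 2.27 in explants, 0.866 to 1.47 in irises and 0.664 to 1.04 in livers. Part of the Nr1d1 exons, 263 of 3077 bases, is shared with Thra on the other strand, and reads were counted for both genes without strand. Thra, which encodes a thyroid hormone receptor, lay at 50.6 to 77.9 TPM in explants and 69.0 to 78.3 in irises, but at 7.57 to 10.7 in livers, and its part in the Nr1d1 difference was not tested.

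The Period genes, which encode the brakes of the loop, were highest in iris. Per3 (chr4:151003652-151044665, minus strand) lay at 45.8, 51.2 and 51.8 TPM in irises (49.6 ± 3.30) and at 28.7, 14.7, 25.4, 20.5 and 20.5 TPM in explants (22 ± 5.33), without overlap. Livers held 18.6, 18.8 and 13.2 TPM (16.8 ± 3.17). Hepatocyte preparation 1, at 14 TPM, lay inside the liver range, while preparations 2 and 3 held 1.32 and 1.22 TPM, below both spheroids at 4.11 and 3.43 TPM. Per2 (chr1:91415982-91459324, minus strand) was 22, 26.9 and 22.1 TPM in irises (23.6 ± 2.77), above explants at 12.5, 8.74, 10.7, 9.43 and 10.5 TPM (10.4 ± 1.42). Livers reached from 9.16 to 18.6 TPM. Again preparation 1, at 21.3 TPM, stood apart from the other two at 3.94 and 4.45, and spheroids lay at 9.61 and 11.8 TPM.

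Dbp (chr7:45705088-45710155, plus strand), a PAR bZIP factor known for a wide daily swing, was 135, 86.5 and 79.1 TPM in irises (100 ± 30.3). Explants gave 67.1, 30.9, 50.2, 52.1 and 48.1 TPM (49.7 ± 12.9) and livers 55.6, 51.6 and 38.1 TPM (48.4 ± 9.19). Explants thus lay below every iris and overlapped the livers. Hepatocyte preparations gave 68.2, 17 and 7.94 TPM, and both spheroids, at 5.68 and 6.83 TPM, lay below all other samples. Of the Dbp exons, 491 of 2945 bases are shared with Sphk2 on the other strand.

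Tef (chr15:81802421-81826861, plus strand) and Hlf (chr11:90336536-90390895, minus strand), its relatives, had the same order of irises over explants. Tef was 138, 141 and 132 TPM in irises (137 ± 4.48) and 68.9, 54.1, 70.4, 61.4 and 57.8 TPM in explants (62.5 ± 7.06), a narrow band that overlapped the livers at 79.1, 53.3 and 63.8 TPM (65.4 ± 13). Preparation 1 held 60.5 TPM and the other two 16.2 and 12, overlapping the spheroids at 15.3 and 19.6. Hlf was 61.9, 52.3 and 48.4 TPM in irises (54.2 ± 6.95), 27.6 to 37.8 in explants (33.7 ± 3.96), 22.2 to 33.7 in livers (28.8 ± 5.95), 11.6 to 26.3 in hepatocytes and 13.6 to 14.8 in spheroids.

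Usp2 (chr9:44067021-44095627, plus strand) showed the contrast among hepatocyte preparations most. Livers held 72.2, 61.1 and 63.9 TPM (65.7 ± 5.77), preparation 1 held 55.8 TPM, and preparations 2 and 3 held 6.28 and 2.43 TPM, so that preparation 1 held 22.9 times as much as preparation 3. Spheroids gave 7.59 and 12.2 TPM. Irises lay at 127, 111 and 102 TPM (113 ± 12.4), and explants at 58.9, 60.7, 61.1, 55.4 and 45.5 TPM (56.3 ± 6.47), below every iris and partly within the liver range.

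Ratios of 2 genes within a sample do not depend on how libraries are scaled. Dbp over Arntl was 22.5, 12.6 and 4.92 in irises 1, 2 and 3 and 33.1, 14.2 and 5.08 in livers 1, 2 and 3. The explants' ratios, 2.34, 0.714, 1.23, 1.15 and 2.23, all lay below both tissues. In hepatocyte preparations the ratio was 16.6, 1.55 and 0.212, and in spheroids 0.161 and 0.271. Irises and livers thus had more Dbp than Arntl in every sample, spheroids less in both, and the hepatocyte preparations crossed from one state to the other. Per3 over Arntl ran from 3.22 to 7.64 in irises, from 1.76 to 11.1 in livers and from 0.340 to 1.00 in explants. Usp2 over Arntl ran from 6.36 to 21.1 in irises, from 8.53 to 43 in livers and from 1.22 to 2.11 in explants.

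**Figure D2:**
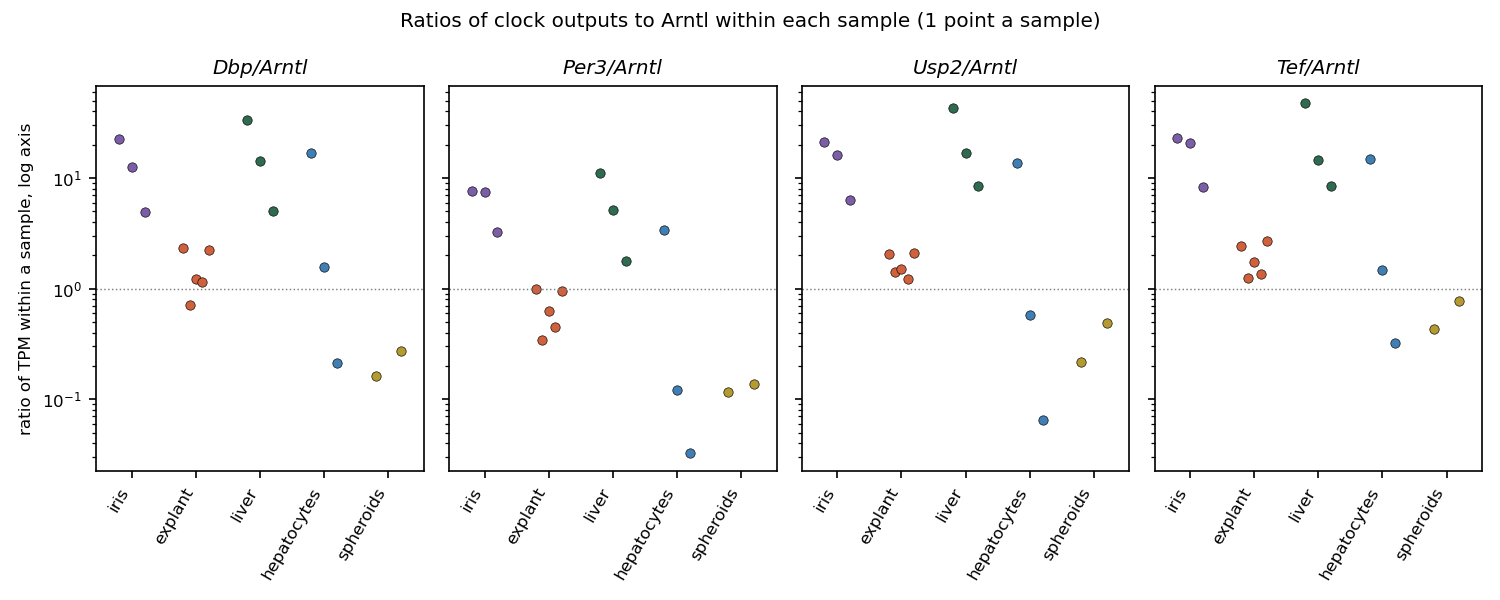
Ratio of Dbp, Per3, Usp2 and Tef to Arntl within each sample (log axis, dotted line at 1, 1 point a sample, by group). For all 4 ratios the explants lie below every iris and liver, and hepatocyte preparation 1 lies among the livers while preparations 2 and 3 lie far below.

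Spread among samples of a group was uneven. In hepatocyte preparations the ratio of highest to lowest level, as log2 of TPM + 1, had a median of 2.21 over the 10 genes and exceeded 1 for 9 of them. Over all 17064 genes that passed the filter across the 5 groups the median was 0.42, and 13.2% exceeded 1. Preparation 1 was more than 2-fold above both others in Dbp, Tef, Per2, Per3 and Usp2, as were 3.44% of all genes, and more than 2-fold below both in Arntl, as were 1.71%. By all genes preparation 1 was at a median difference of 0.25 log2 units from each of the others. They were nearly as far from one another, at 0.24. For the 10 genes those medians were 1.54 and 2.14 against 0.71. Summed immediate early genes, which respond to stress and isolation, were 754 TPM in preparation 1 and 1854 and 1428 in the others, against 83.8 to 143 in livers. Summed glucocorticoid response genes were 2200, 1842 and 2722 TPM. The part of either in the split was not tested.

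In livers the median spread was 0.57 over the 10 genes against 0.46 over all, in irises 0.33 against 0.26, in explants 0.76 against 0.56, and in spheroids 0.25 against 0.32. Liver 1 held the least Arntl, Nfil3, Per2 and Hlf and the most Dbp, Tef, Nr1d1, Nr1d2 and Usp2 of the livers. Between the 3 libraries made from a sample, the variance of the 10 genes' counts was a median of 1.16 times their mean, where counting alone gives 1. By sample it ran from 0.63 in spheroid 1 to 2.29 in explant 4. Livers 1, 2 and 3 lay at 2.18, 1.60 and 2.02, above all genes there at 1.06, 1.07 and 1.01.

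The comparison of explants with iris sets iris that carries a graft beside iris without one. Arntl differed most, by 1.99 ± 0.36 (log2 fold change ± SE, edgeR), and Nfil3 by 1.35 ± 0.34. Per2, Per3 and Tef lay lower, at -1.09 ± 0.13, -1.09 ± 0.15 and -1.04 ± 0.07 on the log2 scale. Dbp (-0.92 ± 0.22), Usp2 (-0.91 ± 0.09), Nr1d2 (-0.64 ± 0.12) and Hlf (-0.59 ± 0.09) were lower by less, and Nr1d1 lay at 0.20 ± 0.20. At an adjusted p under 0.05 and a log2 fold change beyond 1, the limits used for every call here, 2 of the 10 would be called higher, beside 6.16% of all 16764 genes tested, and 3 lower, beside 0.316%. The genes were chosen on this contrast, so nothing is read from those counts. Their median log2 fold change was -0.78, against 0.01 over all genes. By TPM, 7 of the 10 lay below iris without overlap, beside 13.9% of all genes. Macrophage marker RNA also differed here, at 1110 to 2969 TPM summed over 10 genes in explants against 772 to 832 in irises, and lens markers gave 782 to 961 against 1261 to 1653. Their part in these differences was not tested.

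**Figure D3:**
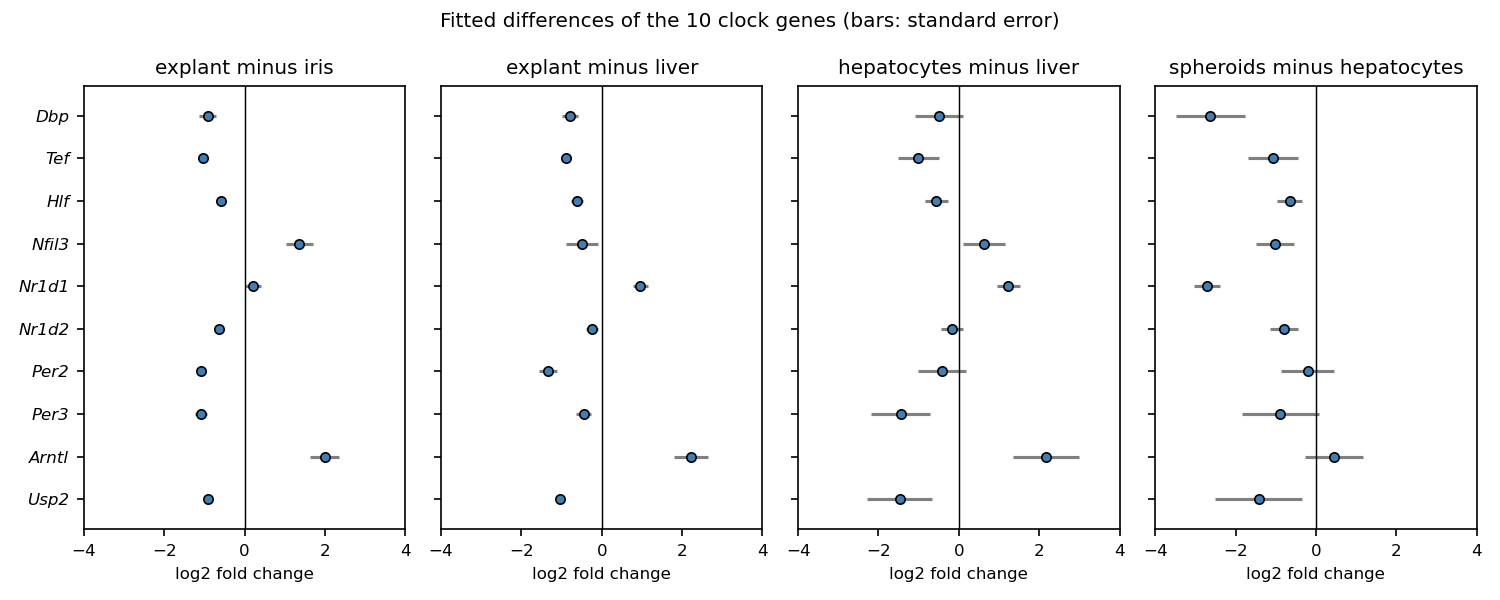
Fitted log2 fold change (x axis, with its standard error as a bar) of the 10 genes in the 4 comparisons, 1 panel each. Between explant and iris, Arntl (1.99) and Nfil3 (1.35) lie farthest right, and the bars are longest in the panels with hepatocyte preparations.

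Of the 16 other core clock genes, 1 rose and 1 fell between iris and explant in edgeR's quasi-likelihood test with Benjamini-Hochberg adjustment. These counts stand beside 6.16% and 0.316% of all 16764 genes tested. Npas2, the partner of ARNTL that can replace CLOCK, rose from 0.812 ± 0.402 to 2.40 ± 0.776 TPM (log2 fold change 1.62 ± 0.38, adjusted p = 0.0249), on 4 to 10 counts per iris and 15 to 31 per explant. Ciart, which encodes a repressor of the CLOCK and ARNTL pair, fell from 97.6 ± 57.5 to 23.6 ± 9.66 TPM (-1.95 ± 0.39, adjusted p = 0.0123). Every explant, at 14.4 to 35.6 TPM, lay below every iris at 57.3 to 163. Without iris 1 the adjusted p was 0.0643 for Ciart and 0.12 for Npas2, and without iris 2 it was 0.116 for Npas2. With all 5 groups in one fit it was 0.197 for Npas2. Clock (0.65 ± 0.11, adjusted p = 0.0051) was higher by less than the limit of fold change, at 16.4 to 25.9 TPM against 15.2 ± 0.157. Cry2 (-0.41 ± 0.10, adjusted p = 0.0277), a partner of the PER proteins, was lower by less than that limit. Per1, Cry1, Arntl2, Bhlhe40, Bhlhe41, Timeless, Csnk1d, Csnk1e, Fbxl21, Btrc, Rora and Rorb did not pass, with fitted values from -0.56 (Rorb) to 0.38 (Arntl2). The list's median was -0.05.

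At an unadjusted edgeR p under 0.05, 9 of the 16 output genes were higher in explants than in iris and 2 lower. Of the 16, 5 rose between iris and explant by edgeR's call, beside 6.16% of all 16764 genes tested. None fell by edgeR, beside 0.316% of all genes, or by DESeq2. Those that rose were Cyp7a1 (bile acid synthesis, 5.28 ± 0.80, adjusted p = 0.00332), Gys2 (liver glycogen synthase, 3.67 ± 0.48, adjusted p = 0.00149), Cyp2a5 (3.65 ± 0.66, adjusted p = 0.00806), Cyp2a4 (23 to 176 counts in explants and 0 to 1 in irises, adjusted p = 0.00851) and Cdkn1a, the cell cycle inhibitor p21 (1.4 ± 0.25, adjusted p = 0.00812). Cyp2a4 and Cyp2a5 are close copies whose reads may be split between them. Without iris 1 the adjusted p was 0.0544 for Cyp2a4, 0.0535 for Cyp2a5 and 0.0534 for Cdkn1a. Without iris 2 it was 0.0539 for Cyp2a4, and without iris 3 it was 0.0524 for Cyp2a4 and 0.0517 for Cyp2a5. By limma-voom Cyp7a1 (adjusted p = 0.154) and Cyp2a5 (0.0825) did not pass, nor did Cyp2a4 with all 5 groups in one fit (0.113). The list's median was 0.41. Hepatocyte markers differed in the same direction between these groups, and their part was not tested. Wee1, a cell cycle kinase under direct clock control, was -0.66 ± 0.23 (adjusted p = 0.0987), and Nampt and Noct were at -0.22 ± 0.10 and 0.19 ± 0.11.

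**Figure D4:**
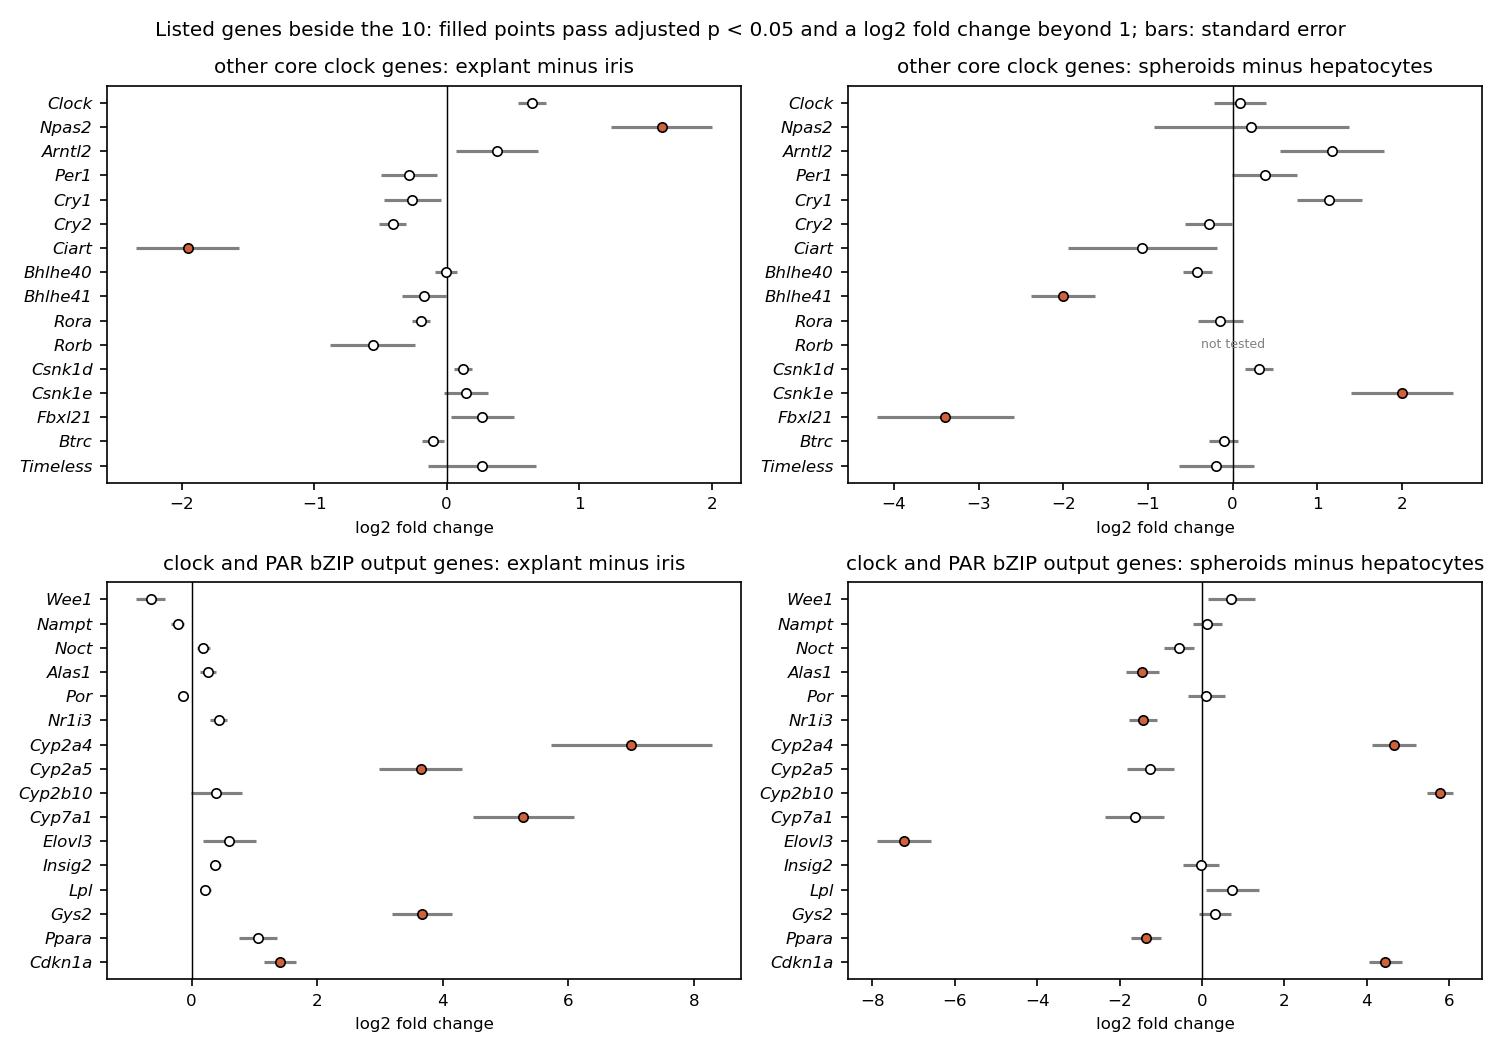
Log2 fold change (x axis, bars are standard errors) of the 16 other core clock genes and the 16 output genes, explant minus iris and spheroids minus hepatocytes. Filled points pass an adjusted p of 0.05 and a log2 fold change beyond 1. Ciart lies at -1.95 and Npas2 at 1.62 between explant and iris.

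Since explants hold iris and graft, their levels were set beside a mixture of mean iris and mean liver TPM at each explant's iris share. Arntl was 3.31, 5.47, 4.74, 5.56 and 2.90 times the mixture in explants 1, 2, 4, 5 and 6, and 27.4% of all genes lay above it in every explant. All 5 explants lay below it for 7 genes, Dbp, Tef, Hlf, Nr1d2, Per2, Per3 and Usp2, as they did for 16.3% of all genes. The 10 were picked with explant levels below iris in view, and these 7 lay below the iris part of the mixture alone. Nothing is read from their count. Observed over expected ran from 0.370 to 0.738 for Dbp, 0.421 to 0.566 for Per2, 0.377 to 0.656 for Per3, 0.473 to 0.570 for Tef and 0.485 to 0.619 for Usp2. The mean explant level of Tef, Per2 and Usp2 was below the mean of both tissues. Nfil3 ran from 0.904 to 2.74 and Nr1d1 from 0.951 to 1.54. Among the other clock genes, Clock (1.41 to 1.91), Npas2 (2.88 to 5.15), Csnk1d (1.06 to 1.20) and Btrc (1.04 to 1.16) lay above the mixture in every explant, and Ciart (0.176 to 0.428), Cry2 (0.752 to 0.950) and Rora (0.711 to 0.927) below. The median ratio was 0.661 over the 10 genes and 1.05 over all genes. Given how the 10 were picked, nothing is read from this difference.

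**Figure D5:**
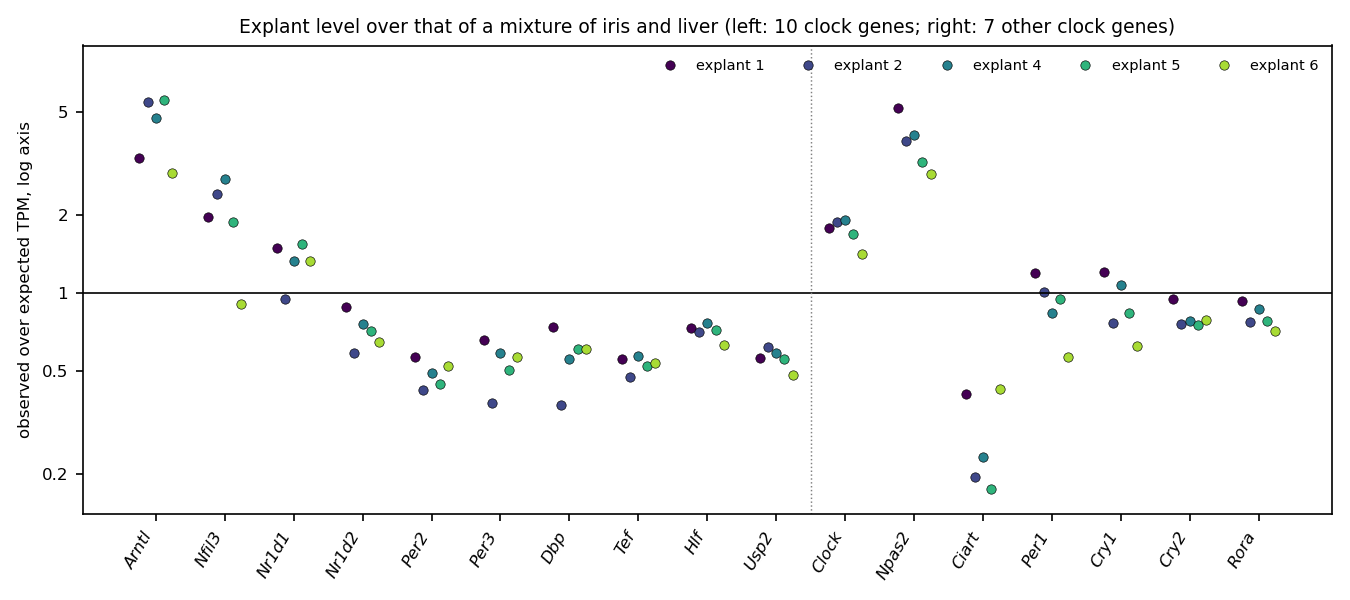
Observed TPM over that of a mixture of mean iris and mean liver (log axis, line at 1) for each explant, 1 color an explant, with the 10 genes left of the dotted line and 7 other clock genes right of it. All 5 points lie above 1 for Arntl, Clock and Npas2, and below 1 for Dbp, Tef, Hlf, Nr1d2, Per2, Per3, Usp2 and Ciart.

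When the authors subtracted the iris share, 7 of the 10 genes became 0 in all 5 explants: Dbp, Tef, Hlf, Nr1d2, Per2, Per3 and Usp2. In these genes a listed 0 stands for a level at or below the iris part that was taken off. Levels before the step ran from 8.74 TPM, for Per2 in explant 2, to 122 TPM, for Nr1d2 in explant 1. The other 3 remained, Arntl at 38.7 to 168, Nfil3 at 22.1 to 169 and Nr1d1 at 32.7 to 461 on the subtracted scale. The highest Arntl and Nfil3 values were those of explant 4, whose subtraction took another form, described with the processing. The 10 were picked with explant levels below iris in view, so nothing is read from the count of 7. How many of all genes became 0 in every explant was not counted.

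Against whole liver, before any subtraction, the answer depended on the scaling. With TMM scaling, which assumes that most genes do not change, Arntl was higher in explants by 2.22 ± 0.43 on the log2 scale and Nr1d1 by 0.96 ± 0.20, while Per2 (-1.33 ± 0.23), Usp2 (-1.05 ± 0.09), Tef (-0.89 ± 0.12), Dbp (-0.79 ± 0.20), Hlf (-0.62 ± 0.15), Nfil3 (-0.49 ± 0.40), Per3 (-0.45 ± 0.19) and Nr1d2 (-0.24 ± 0.14) were lower. Scaling by library size alone shifted all genes by a median of 0.63 and put Hlf (0.02), Nfil3 (0.17), Per3 (0.19) and Nr1d2 (0.40) above 0, with Arntl at 2.86, Nr1d1 at 1.59, Per2 at -0.69, Usp2 at -0.42, Tef at -0.26 and Dbp at -0.16. Arntl and Nr1d1 were higher, and Per2, Usp2 and Tef lower, under both. Dbp was below 0 under both, but with library size alone it was within its error of 0 (-0.16 ± 0.22). With TMM, 1 of the 10 would be called higher, beside 28.9% of 16506 genes, and 2 lower, beside 19.7%. With library size alone 2 would be called higher, Arntl and Nr1d1, beside 43%, and 0 lower by edgeR, beside 10.4%, with 2 lower at an unadjusted p under 0.05. By TPM 3 lay above every liver, Arntl, Nr1d1 and Nr1d2, beside 60.6% of genes, and none below, beside 14.6%. The 10 were chosen by their levels, so these counts are a description. With TMM their median was -0.55, against 0.17 over all genes.

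Of the 16 other core clock genes, 4 rose against liver and 3 fell, beside 28.9% and 19.7% of 16506 genes. These counts are near those shares. Bhlhe41 (3.35 ± 0.23, adjusted p = 1.38e-06), Csnk1e (1.19 ± 0.30, adjusted p = 0.00488), Npas2 (15 to 31 counts against 0 to 1) and Rorb (86 to 247 counts against 0 to 2) rose. Bhlhe41 lay at 79.5 to 107 TPM and Rorb at 10.8 ± 5.45 in iris itself. Mean Csnk1e was 10.2 TPM in iris, 10.5 in explants and 2.63 in livers. Mean Npas2 was 0.812 TPM in iris, 2.40 in explants and 0.0974 in livers. Ciart fell by 1.63 on the log2 scale (SE 0.34, adjusted p = 0.00164), Rora, which encodes an activator of RORE genes, by 1.17 (SE 0.09, adjusted p = 2.36e-06) and Fbxl21 by 1.14 (SE 0.22, adjusted p = 0.00116). With library size alone 7 rose, beside 43% of all genes, and 1, Ciart, fell, beside 10.4%. Rora and Fbxl21 were at -0.54 and -0.51 and no longer passed, while Clock (1.57), Btrc (1.39) and Arntl2 (1.03) were added. With at least 10 counts in every sample Rora (-0.89) and Fbxl21 (-0.86) were within the limit of fold change, as was Csnk1e (0.87) without liver 3. Of the 16 output genes 2 rose, Lpl and Cdkn1a, the first of which passed no longer without liver 2 or liver 3 (adjusted p = 0.077 and 0.0796). Another 9 fell, among them Por (-2.55 ± 0.11), Ppara (-4.10 ± 0.25) and Gys2 (-3.99 ± 0.36), with hepatocyte marker RNA lower in explants than in livers as given above. One of the 9, Cyp2b10, had an adjusted p of 0.0532 without liver 1.

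Hepatocyte preparations were compared with whole liver to see what isolation changes. Markers of other liver cells were lower in preparations: those of stellate cells and fibroblasts summed to 124 to 185 TPM against 446 to 1197 in livers (3 of 7 called lower), those of macrophages to 151 to 281 against 514 to 1143 (2 of 8) and those of endothelium to 61.5 to 182 against 255 to 301 (1 of 8). Their part in the clock gene differences here was not tested. Fitted differences were 2.16 ± 0.82 for Arntl, 1.23 ± 0.29 for Nr1d1 and 0.62 ± 0.52 for Nfil3, and -1.47 ± 0.81 for Usp2, -1.45 ± 0.74 for Per3, -1.01 ± 0.51 for Tef, -0.57 ± 0.28 for Hlf, -0.50 ± 0.60 for Dbp, -0.42 ± 0.59 for Per2 and -0.17 ± 0.28 for Nr1d2. None of the 10 would be called by edgeR, beside 2.72% of 12236 genes, with 2 at an unadjusted p under 0.05, 2 by DESeq2 and 0 by limma-voom. The 10 were chosen by their levels, so these counts are a description. Their median was -0.46, against 0.01 over all genes. Without preparation 1, 6 would be, beside 448 of all genes in that fit. They were Nr1d1 at 1.4, and Usp2 at -3.74, Per3 at -3.56, Tef at -2.06, Dbp at -1.79 and Per2 at -1.65. The sample left out there is the one that stood apart in these genes, so nothing is read from that count. None of the 28 other listed genes that could be tested was called by edgeR, with 10 at an unadjusted p under 0.05 and 0 by limma-voom. DESeq2 called 3 (Insig2, Noct and Per1), and edgeR without preparation 1 called 3 (Insig2, Nampt and Per1). Per1 was -1.12 ± 0.31 (adjusted p = 0.081), Insig2 1.22 ± 0.31 (adjusted p = 0.0664) and Elovl3 2.26 ± 0.76 (adjusted p = 0.118).

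Spheroids against hepatocyte preparations show the clock genes after culture, with 2 samples in one arm. Nr1d1 fitted at -2.71 ± 0.32, Dbp at -2.63 ± 0.85, Usp2 at -1.42 ± 1.08, Tef at -1.07 ± 0.63 and Nfil3 at -1.01 ± 0.47. Arntl, at 0.45 ± 0.73, Per2, at -0.21 ± 0.67, and Per3, at -0.88 ± 0.95, were within their errors of 0. Nr1d2 and Hlf fitted at -0.79 ± 0.34 and -0.65 ± 0.31. Other lists differed too: 6 of 8 immediate early genes were called lower and 1 higher (518 to 537 TPM summed in spheroids), and of 8 glucocorticoid response genes 4 were called higher and 1 lower. Of 9 macrophage markers 4 were called higher (577 to 755 TPM summed, against 151 to 281), and of 8 endothelial markers 4 lower and 1 higher (76.8 to 103 against 61.5 to 182). Their part in the clock gene differences was not tested. Of the 10, Nr1d1 alone would be called, as lower, beside 9.11% of 12247 genes. The fit without preparation 1 would add Nfil3 at -1.30, and that without preparation 3 Dbp at -3.04. The 10 were chosen by their levels, so these calls are a description. By TPM the spheroids lay below all 3 preparations in Dbp and Nr1d1 and between them in Usp2. The median over the 10 was -0.95, against 0.01 over all genes.

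Among 15 other core clock genes tested in spheroids, Csnk1e, a kinase that acts on PER proteins, rose (2 ± 0.60, adjusted p = 0.0443), and Bhlhe41 (-2 ± 0.38, adjusted p = 0.00809) and Fbxl21 (-3.39 ± 0.81, adjusted p = 0.0201) fell. Csnk1e lost its call whenever any preparation or spheroid 1 was left out, with adjusted p up to 0.326, and Fbxl21 without spheroid 2 (adjusted p = 0.0535). By limma-voom Csnk1e had an adjusted p of 0.0755. In the main fit 2112 of all 12247 genes tested were called, with 9.11% called lower. Cry1 was 14.9 and 13.9 TPM in spheroids against 3.69 to 7.46 in preparations (1.14 ± 0.38, adjusted p = 0.0614). Of the output genes, Cyp2b10, a target of the receptor CAR, rose from 24 ± 7.16 to 1642 ± 220 TPM (5.77 ± 0.32, adjusted p = 6.85e-05), Cdkn1a rose from 16 ± 9.70 to 438 ± 57.4 TPM (4.45 ± 0.41, adjusted p = 0.000525) and Cyp2a4 from 1.88 ± 1.63 to 64.2 ± 9.33 TPM (4.66 ± 0.54, adjusted p = 0.00133). Elovl3, a fatty acid elongase, fell from 1125 ± 552 to 9.43 ± 0.380 TPM (-7.23 ± 0.65, adjusted p = 0.000494), and Alas1, Nr1i3 and Ppara also fell. Alas1 did not pass without preparation 1 or 2 or either spheroid (adjusted p up to 0.156), Ppara without preparation 1 or 2 or spheroid 1 (up to 0.152), and Nr1i3 was at -0.97 without spheroid 1.

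Genes most like Dbp and Arntl over the 16 samples were sought by Pearson's r on log2 CPM (counts scaled to a fixed library total, prior count 2), the listed clock genes aside. Nearest to Dbp were Fbxl17 (r = 0.911), Foxk1 (0.880), Marveld1 (0.870), Cyhr1 (0.866) and Paqr3 (0.861). Above or among them were Tef (0.926), Nr1d2 (0.919), Cry2 (0.908), Hlf (0.901) and Usp2 (0.867), whereas Arntl lay at -0.770. Nearest to Arntl were Leo1 (0.933), Gabpb1 (0.855), Gm42967 (0.832), Gm28635 (0.802) and Dhx29 (0.795), with Clock at 0.814 and Npas2 at 0.798. At the other end lay Ciart at -0.901, the lowest of 17064 genes. Leo1 spanned 20.1 to 70.8 TPM over all samples, less than a 4-fold range, where Arntl spanned 1.68 to 45.3. These correlations are descriptions: the 16 points fall into 5 groups and share 1 scaling.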

How the data were processed

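The authors aligned reads to mm10 with TopHat2 and SAMtools and counted them per gene with featureCounts 1.4.6-p5, without strand, over exons and with a read given to every gene it overlaps. The deposited raw counts of 48 libraries, 3 for each of 16 samples, were summed per sample here, and the sums equal those deposited. The authors' TPM were recomputed from the counts and agree within a relative tolerance of 0.001. The authors' iris-subtracted values, a score and no longer a TPM, were used only to solve the iris share and to show which genes became 0. Of explant 4 that column fits a form of the subtraction in which the iris mean was itself reduced by the share. ERCC controls were left out (418 counts).

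Genes were filtered with filterByExpr, scaled by TMM and fitted with edgeR 4.0.16 (quasi-likelihood, R 4.3.3) on the 2 groups compared, with Benjamini-Hochberg adjustment over all genes tested. Genes were called where the adjusted p was under 0.05 and the log2 fold change beyond 1 in either direction. The SE given with an edgeR fold change was derived from the test, as the absolute log2 fold change over the square root of its F statistic. DESeq2 1.42.0 and limma 3.58.1 (voom) were alternatives. The fits were tested on simulated data. The study's methods speak of biological replicates, but the labels tie no sample to an animal, so p-values measure the spread between these samples. Precision is limited by 2 to 5 samples a group and by 2718518 to 6789648 counts a sample. Gene symbols are those of GENCODE M21. Arntl is listed there and as Bmal1 in the subtracted table.

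The 10 genes and all lists were chosen with earlier results of these data known. Some genes of the core clock list are not reported here and enter no count. Named are the 10, the genes of the lists of other core clock genes and of output genes, and the 5 genes most like each of Dbp and Arntl, with marker genes only where a result turns on them. Python 3.11.15, pandas 2.3.3, scipy 1.17.1 and matplotlib 3.10.9 were used.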

Additional observations from a re-analysis of the deposited data

Results flagged for a closer look

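Among the 42 genes named or listed, the spread of the 5 explants was tested for a sample whose gap to the nearest other exceeds 0.71 of the whole range. Chance gives about 1 such gene in 20, and 2 of 42 were found. Cyp2a4, a hepatic cytochrome P450, was 49.0 TPM in explant 6, against 6.54 to 13.7 TPM in the other explants (gap 0.831 of the range). Cyp2b10, another hepatic cytochrome P450, was 27.4 TPM in explant 2, against 9.33 to 10.2 TPM in the others (gap 0.954). None of the 10 clock genes had such an explant.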

How the results depend on the processing

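Precision is limited by 2 to 5 samples a group, and a lone sample left in an arm is assumed to vary like the others. Calls among the 10 clock genes and the 32 other listed genes were recounted under each alternative, and the cause of each change was not tested. Explants against iris gave 5 and 7 calls: 1 of the 10 with all 5 groups in one fit, 9 and 10 with no fold limit, 4 listed genes with at least 10 counts in every sample, and 3 to 6 and 2 to 8 when 1 sample was left out (3 without explant 2 or iris 2, 2 without iris 1). Explants against liver gave 3 and 18: 7 of the 10 with no fold limit, and 3 to 4 and 18 to 19 with 1 sample left out. Hepatocytes against liver gave 0 and 0: 2 and 3 by DESeq2, 4 and 8 with no filter, 2 and 6 with all groups in one fit, and 0 to 6 and 0 to 3 with 1 sample left out (6 and 3 without preparation 1). Spheroids against hepatocytes gave 1 and 10: 4 of the 10 with no filter, 2 with all groups in one fit, and 1 to 2 and 6 to 11 with 1 sample left out (2 without preparation 1 or 3, 6 without spheroid 1). No called gene changed direction.

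Over all genes, the count for explants against iris was 1085 and went to 583 by limma-voom, 644 with at least 10 counts and 1975 with no fold limit, and to 583, 630 and 603 without iris 1, 2 and 3. That for explants against liver was 8020 and went to 4362 with at least 10 counts. That for hepatocytes against liver was 333 and went to 647 by DESeq2, 20 by limma-voom, 1205 with no filter, 1140 with all groups in one fit, 169 with at least 10 counts, and 8 to 448 with 1 sample left out (15 and 8 without preparations 2 and 3, and 143, 20 and 99 without livers 1, 2 and 3). That for spheroids against hepatocytes was 2112.

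Over all 17064 genes, same-numbered samples did not deviate together (correlation of deviations -0.13 to 0.10 over the 4 comparisons). For the 3 pairs of hepatocytes and livers it was -0.02 to 0.06, and the numbers were not taken as pairs. Dbp over Arntl did share an order. It fell from sample 1 to 3 in irises (22.5, 12.6, 4.92), livers (33.1, 14.2, 5.08) and hepatocyte preparations (16.6, 1.55, 0.212). It also fell from explant 1 to 2 but rose from spheroid 1 to 2. Whether same-numbered samples shared an hour or session was not tested. With a replicate block, calls among the 10 and the other listed genes were 6 and 6 for explants against iris, 2 and 14 for explants against liver, 1 and 2 for hepatocytes against liver, and 3 and 12 for spheroids against hepatocytes. The same samples without the block, an alternative chosen after seeing the data, gave 3 and 3, 1 and 15, 0 and 0, and 2 and 11. Over all genes the block gave 797, 6241, 408 and 1981 calls, and the same samples without it 551, 7066, 333 and 1599. The 7 genes below the mixture of iris and liver stayed 7 with another estimate of the iris share and without any 1 sample. They also stayed 7 with hepatocytes or spheroids in place of liver. That swap could not change them, since their explant levels lay below the iris part of the mixture alone. The explant mean lay below the iris mean for 7 of the 10, and for 7 to 8 without 1 sample.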

Other observations

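Liver 1 differed from livers 2 and 3 in several output genes as well as in the clock genes. Cyp2a4 was 248 TPM in liver 1 and 1.64 and 0.384 TPM in the others, Cyp2b10 was 169 TPM against 17.3 and 15, and Elovl3 was 37.3 TPM against 371 and 366. Elovl3 is known as both a rhythmic and a male-biased gene and Cyp2a4 as a female-biased one, while Ddx3y was present in every sample. Hepatocyte preparations held 2.85, 2.78 and 0 TPM of Cyp2a4 and 501, 1331 and 1545 TPM of Elovl3. Explants held 5.47 to 15.8 TPM of Elovl3, near the irises at 6.01 to 8.43.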
